A study of Mus musculus with 9 samples.

Results

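Mouse embryonic stem cells with a knockout of UTX were compared with wild type stem cells across all expressed genes. Of the 9 RNA-seq libraries in the series, 6 form this comparison and were chosen by their labels: 3 from wild type cells, titled JM8A, and 3 from UTX knockout cells, titled A6. Every group was male mouse embryonic stem cells without treatment, on dishes coated with 0.2% gelatin, in medium with serum, LIF, glutamine, 2-mercaptoethanol, nonessential amino acids and antibiotics. The other 3 libraries, from JM8A cells with an MLL4 knockdown, were not compared here but entered the scaling, the filter on low counts and the fit. In the fit they helped to estimate the spread and the effects of replicate number. All knockout libraries carry the title A6, so the effect of the knockout and any other property of the A6 cells cannot be told apart. The labels do not say how the UTX allele was changed, whether A6 is 1 clone or whether numbered replicates were separate cultures, so p-values measure the spread between these libraries, which may be technical. The deposited table lists 33924 genes, of which 24396 had a count in some library and 14772 had counts high enough to be tested.

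UTX, encoded by the X-linked gene Kdm6a, is a histone demethylase that removes methyl groups from lysine 27 of histone H3, a mark laid down by Polycomb complexes at silent genes. It works within the COMPASS complexes built around the methyltransferases MLL3 and MLL4, which put the monomethyl mark on lysine 4 of histone H3 at enhancers, and enhancers become active when p300 acetylates histone H3 there. In serum with LIF, embryonic stem cells fluctuate between a naive state close to the early epiblast and a formative state close to the implanting embryo, and rare cells enter a state resembling the embryo at the 2-cell stage. The title of the series names a network of UTX, MLL4 and p300 at active enhancers, and the libraries allow the question of which transcripts differ in abundance when UTX is lost.

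The 6 libraries held 18785719 to 23874816 counted reads each. Summed levels of 12 embryonic stem cell markers were 5998, 6972 and 6310 CPM (reads of a gene scaled to a common library size) in wild type replicates 1, 2 and 3, and 7045, 7672 and 7701 CPM in knockout replicates 1, 2 and 3, so the labelled cell type had its markers in every library. In each group lane 2 held replicates 1 and 3, and lane 1 held replicate 2. Wild type replicate 2 had a slope of expression on transcript length of -0.415 log2 units per 10-fold length, against -0.0707 to 0.157 in the other 5 libraries. Wild type replicate 1 was low in keratin, contractile and trophectoderm genes, which is given beside those genes. In RNA from a mixed culture, fewer cells of a type and less RNA per cell cannot be told apart.

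Kdm6a was reduced but still detected in the knockout libraries. It measured 89, 57.1 and 90.7 CPM in wild type and 12.8, 17 and 19.4 CPM in the knockout, in the order of replicates 1, 2 and 3 that is used throughout. All knockout values lay below all wild type values, and the knockout mean was 20.97% of the wild type mean by the fitted fold change (log2 fold change -2.25, SE 0.19, adjusted p = 3.8e-05, by edgeR's quasi-likelihood test with Benjamini-Hochberg adjustment over all tested genes). Which part of the gene was deleted is not stated in the labels, so the place of the remaining reads in the transcript was not tested. Uty, the Y-linked paralogue of Kdm6a, measured 16.8, 9.67 and 15.7 CPM in wild type and 0.785, 0.908 and 0.789 CPM in the knockout (log2 fold change -4.03, SE 0.23, adjusted p = 4.18e-06). The groups did not overlap, and the other tested genes of the Y chromosome fell as well, as described with the chromosomes below. Of the 3 nearest tested genes on each side of Kdm6a on the X chromosome, 2 fell, both on the same side: the adjacent Fundc1 (-0.55 ± 0.12, log2 fold change ± SE, as are all such values that follow) and Maob, which was near 1 CPM in wild type (-1.24 ± 0.35). The call of Maob was lost without the block (adjusted p = 0.085) and without wild type replicate 1, wild type replicate 2, knockout replicate 2 or knockout replicate 3 (adjusted p = 0.0651, 0.0748, 0.103 and 0.0965).

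A few subunits of the COMPASS complexes rose. Of 10 tested genes of the MLL3 and MLL4 complexes, 3 rose and Kdm6a alone fell. Wdr5 and Rbbp5, core subunits common to all COMPASS complexes, rose from 258 ± 12.1 to 351 ± 24.1 CPM and from 104 ± 13.8 to 162 ± 10.2 CPM (0.44 ± 0.09 and 0.64 ± 0.11; levels are the mean ± SD of 3 libraries here and below). Ncoa6, a coactivator subunit particular to the MLL3 and MLL4 complexes, rose from 58.4 ± 16.8 to 89 ± 8.76 CPM (0.64 ± 0.13). The methyltransferases themselves, listed under the older symbols Mll3 and Mll2 for Kmt2c and Kmt2d, had positive values that did not pass the test (0.49, adjusted p = 0.166, and 0.50, adjusted p = 0.102). Mll2 passed without a filter on low counts (0.51, adjusted p = 0.0323) and without wild type replicate 3 (0.78, adjusted p = 0.0391). Without wild type replicate 2, whose slope on transcript length stood apart, Mll3 and Mll2 were at only 0.09 and 0.18 (adjusted p = 0.548 and 0.285). Ep300, the gene of p300, was at 192 ± 71.6 and 185 ± 13 CPM (-0.01, adjusted p = 0.976). Of 31 Polycomb genes, 2 passed the test, both higher. Without the block, wild type replicate 3, knockout replicate 2 or knockout replicate 3 there was 1 rise, and without wild type replicate 1 there were 3 rises and 2 falls. The rises included Phc3, a subunit of the canonical complex PRC1 (0.93 ± 0.24), whose call was lost without knockout replicate 2 (0.69, adjusted p = 0.082).

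Across the transcriptome, 3446 of 14772 tested genes passed an adjusted p of 0.05 (23.3%), with 1551 higher (10.5%) and 1895 lower (12.8%) in the knockout. Among called genes, 724 fell and 326 rose by more than 2-fold. The 3 knockout values of 2926 called genes lay wholly above or wholly below the wild type values, and 31.5% of all tested genes had groups that did not overlap. Direction varied with abundance. When tested genes were split into 4 equal sets by mean level, 6.53% rose and 15.9% fell in the least abundant set, and 12.5% rose and 10% fell in the most abundant set. The number of calls depended on single libraries, from 1631 without knockout replicate 3 and 1718 without knockout replicate 2 to 4047 without wild type replicate 1, and it was 2285 when the replicate number was not used as a block, all of them among the 3446. The median log2 fold change of all tested genes was near 0 (-0.002).

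**Figure D1:**
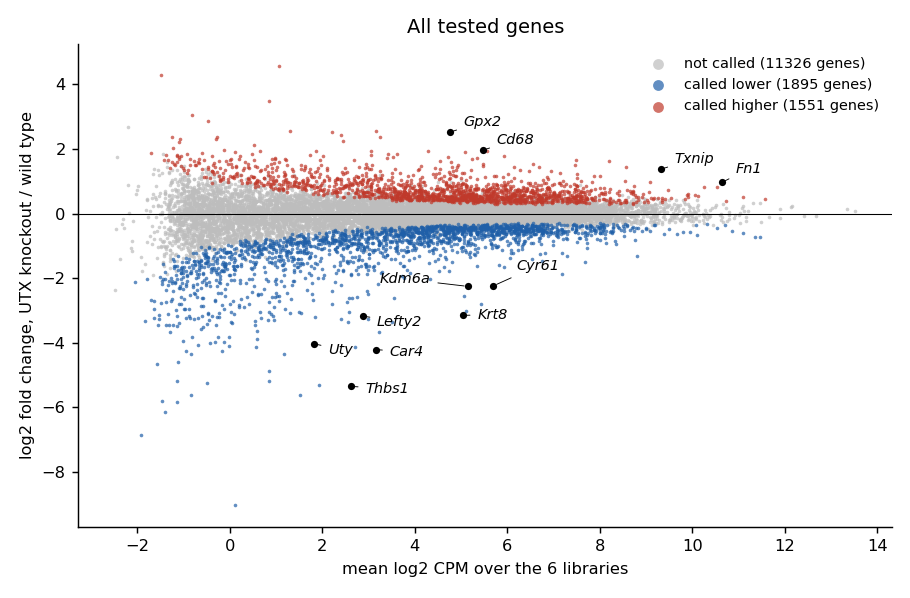
Each point is 1 of 14772 tested genes, with mean log2 CPM over the 6 libraries on the x axis and log2 fold change of UTX knockout against wild type on the y axis. The 1551 genes called higher and the 1895 called lower are coloured, and named genes such as Thbs1 and Krt8 lie among the larger falls and Gpx2 and Cd68 among the larger rises.

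Many of the lower calls came from 3 chromosomes. Chromosomes 4, 8 and Y together held 625 of the genes called lower, or 33% of them. On chromosome 8, 371 of 777 tested genes fell (47.7%) and 12 rose, and the median log2 fold change was -0.442, with -0.419, -0.469 and -0.391 in the pairs of replicates 1, 2 and 3. The shift ran along the whole chromosome: medians in 10 bins of consecutive genes lay between -0.516 and -0.369. On chromosome 4 the median was -0.15, with 250 of 990 genes lower (25.3%) and 70 higher, and the low values lay in bins 2 to 4 of 10 (-0.504, -0.361 and -0.403). Bins of the other autosomes and X had medians between -0.188 and 0.217. All 4 tested Y-linked genes fell: Ddx3y, an RNA helicase, measured 26.1, 13.6 and 17.5 CPM in wild type and 2.7, 1.25 and 1.63 CPM in the knockout (-3.36 ± 0.21), and Eif2s3y, a translation initiation subunit, fell by 3.82 on the log2 scale. Outside chromosomes 4, 8 and Y, 1449 of 12748 genes rose (11.4%) and 1248 fell (9.79%).

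The wild type libraries stood apart on these chromosomes, and not the knockout libraries alone. Relative to the mean of all 9 libraries, chromosome 8 genes had median deviations of 0.264 to 0.287 in wild type, -0.187 to -0.135 in the knockout and -0.123 to -0.112 in the MLL4 knockdown, which shares the wild type libraries as its controls. Summed over the 4 Y-linked genes, levels were 49, 26.9 and 37.3 CPM in wild type, 4.07, 2.34 and 2.51 CPM in the knockout and 3.82, 3.03 and 2.88 CPM in the MLL4 knockdown. DNA copy number was not measured in these libraries, so a difference in chromosome content between the cell populations was not tested. Genes on chromosomes 4, 8 and Y are named as such below.

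**Figure D2:**
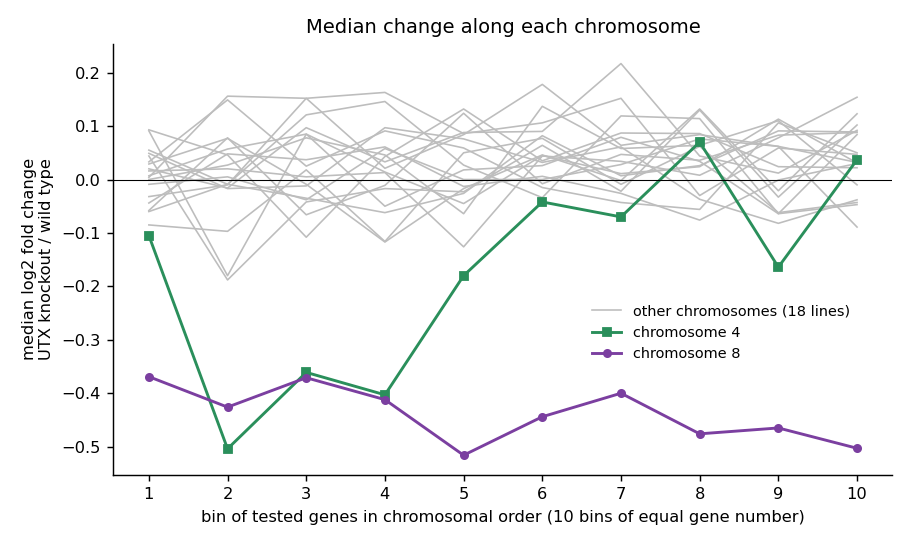
Median log2 fold change (y axis) in 10 bins of consecutive tested genes along each chromosome (x axis), UTX knockout against wild type. The bins of chromosome 8 lie between -0.516 and -0.369 and bins 2 to 4 of chromosome 4 between -0.504 and -0.361, below the bins of the other autosomes and X.

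The largest rises among genes of moderate or high abundance were in genes of varied function. Gpx2, a glutathione peroxidase that reduces peroxides, measured 11.4, 12.4 and 9.85 CPM in wild type and 90.3, 53.9 and 57.1 CPM in the knockout (log2 fold change 2.52, SE 0.25, adjusted p = 8.77e-05). Cd68, a lysosomal membrane glycoprotein used as a macrophage marker, measured 16, 28.3 and 25.1 CPM in wild type and 54.6, 102 and 119 CPM in the knockout (log2 fold change 1.96, SE 0.13, adjusted p = 1.24e-05). In both genes every knockout library lay above every wild type library by a wide margin. Pdgfc, a ligand of the PDGF receptors, rose from 10.1 ± 2.47 to 38.7 ± 4.06 CPM (1.94 ± 0.16). The protease inhibitor gene A2m, the p53-inducible ribonucleotide reductase subunit gene Rrm2b and the endocytic receptor gene Ly75 rose by 1.93, 1.92 and 1.77 on the log2 scale. Nid1 and Lama1, 2 structural proteins of basement membranes, rose to 528 ± 113 and 301 ± 50.4 CPM from 172 ± 55.4 and 106 ± 22.9 CPM. In absolute terms the largest gain was that of Fn1, the gene of the matrix protein fibronectin, which measured 1243, 821 and 1444 CPM in wild type and 1819, 2428 and 2582 CPM in the knockout (log2 fold change 0.96, SE 0.18, adjusted p = 0.00345).

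Among the largest falls, keratin, contractile and matricellular genes led, and they are described with their groups. Others were Tubb3 and Ina, a tubulin and an intermediate filament of neurons, which fell from 70.9 ± 2.43 to 23.5 ± 5.17 CPM (-1.61 ± 0.13; chromosome 8) and from 42.5 ± 5.76 to 13 ± 4.94 CPM (-1.76 ± 0.14). Palld and Tbc1d9, both on chromosome 8, fell by 1.65 and 2.04 on the log2 scale, well beyond the median of their chromosome. Ppp1r10, a nuclear targeting subunit of protein phosphatase 1, measured 62.3, 38.2 and 45.1 CPM in wild type and 26.5, 12.5 and 13.9 CPM in the knockout (-1.51 ± 0.12), with all knockout libraries below all wild type libraries. By loss of CPM the largest falls were of mitochondrially encoded transcripts. mt-Nd1, a complex I subunit, measured 3584, 3120 and 4248 CPM in wild type and 2613, 1775 and 2256 CPM in the knockout (log2 fold change -0.73, SE 0.12, adjusted p = 0.00184), and mt-Cytb of complex III measured 2805, 3238 and 4304 CPM in wild type and 2236, 1724 and 2182 CPM in the knockout (log2 fold change -0.74, SE 0.14, adjusted p = 0.00326). Of the 7 tested mitochondrially encoded genes, a set chosen after their values were seen, 4 fell and mt-Co1 was at 0.07 (adjusted p = 0.727).

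**Figure D3:**
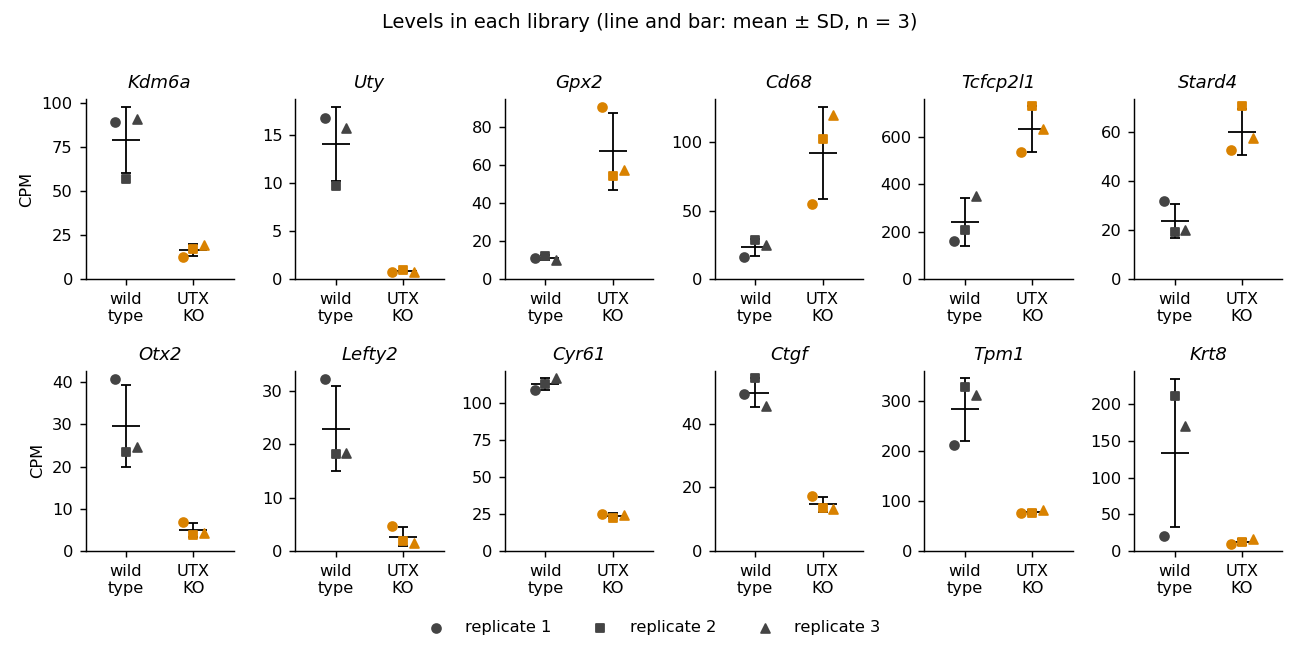
Level in CPM (linear y axes from 0) of 12 genes in the 3 wild type and 3 UTX knockout libraries, with 1 point per library, the marker shape giving the replicate, a horizontal line at the group mean and bars for ± SD (n = 3). The Kdm6a, Uty, Otx2, Lefty2, Cyr61, Ctgf and Tpm1 knockout points lie below all wild type points, the Gpx2, Cd68, Tcfcp2l1 and Stard4 points lie above, and Krt8 in wild type replicate 1 lies far below wild type replicates 2 and 3.

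More naive pluripotency factors rose than fell. Of 20 tested naive factors, 9 rose and 4 fell (median log2 fold change 0.30), against 10.5% higher and 12.8% lower among all tested genes. Tcfcp2l1, the current Tfcp2l1, encodes a transcription factor that holds cells in the naive state downstream of LIF and measured 162, 206 and 352 CPM in wild type and 537, 728 and 630.2 CPM in the knockout (log2 fold change 1.44, SE 0.20, adjusted p = 0.000713). The knockout libraries were each above all wild type libraries. Tbx3 and Prdm14, factors that sustain self-renewal and restrain differentiation, rose from 49.5 ± 21 to 93.4 ± 22.5 CPM (0.96 ± 0.17) and from 18.8 ± 2.34 to 34.5 ± 4.91 CPM (0.87 ± 0.11). Among 16 genes of the LIF pathway 4 rose and none fell. They included Lifr, the LIF receptor subunit (0.87 ± 0.14), and Stat3, the factor it activates (0.54 ± 0.12). The naive genes that fell included Dppa3, which protects maternal DNA methylation marks in the early embryo and measured 38.2, 39.7 and 25 CPM in wild type and 14.7, 10.3 and 10.5 CPM in the knockout (-1.52 ± 0.16), and Fbxo15, an F-box protein marking stem cells (-0.76 ± 0.12). Rises among naive factors numbered 5 without knockout replicate 1 or knockout replicate 2 and 5 without the block, and falls numbered 2 without wild type replicate 3, knockout replicate 2 or knockout replicate 3.

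The central factors did not pass the test. Pou5f1 (OCT4) measured 673, 1187 and 828 CPM in wild type and 969, 1122 and 1143 CPM in the knockout (0.30, adjusted p = 0.117; 0.47, adjusted p = 0.00776, without wild type replicate 2), and Sox2 had 0.02 (adjusted p = 0.91). Nanog measured 542, 499.5 and 545 CPM in wild type and 666, 559 and 554 CPM in the knockout (0.16, adjusted p = 0.298). The groups overlapped for Pou5f1 and Sox2, while each knockout library was above each wild type library for Nanog. Of 16 genes in the wider pluripotency list 6 fell and 1 rose, and 3 of those falls were of genes outside chromosomes 4 and 8. L1td1, an RNA-binding protein derived from a LINE-1 element (chromosome 4), measured 642, 739 and 750.1 CPM in wild type and 342, 257 and 263 CPM in the knockout (log2 fold change -1.32, SE 0.13, adjusted p = 0.000102). Lin28a (chromosome 4) and Lin28b, which block maturation of let-7 microRNAs, fell by 0.69 and 0.71 on the log2 scale. Dppa2, a nuclear protein of the pluripotent embryo, fell from 103 ± 16.9 to 56.1 ± 4.86 CPM and Gdf3, a ligand of the TGF-beta family, from 95 ± 10.4 to 55.5 ± 4.26 CPM.

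Most formative genes fell: 12 of 20 fell and none rose, with a median of -0.84. Otx2, which opens the formative enhancers, measured 40.8, 23.5 and 24.5 CPM in wild type and 6.82, 3.72 and 4.13 CPM in the knockout (log2 fold change -2.60, SE 0.14, adjusted p = 4.14e-06). Knockout levels were a small fraction of every wild type level. Fgf5, a growth factor of the implanting epiblast, fell from 2.41 ± 1.95 to 0.312 ± 0.159 CPM (-2.83 ± 0.40). Dnmt3b and Dnmt3a, the methyltransferases that set new DNA methylation, measured 359 ± 144 and 267 ± 56.3 CPM in wild type and 123 ± 24.5 and 176 ± 24.8 CPM in the knockout (-1.49 ± 0.13 and -0.59 ± 0.10). The transcription factors Pou3f1 (chromosome 4), Sall2, Zic2 and Zic5 fell by 1.16, 1.13, 0.91 and 0.81 on the log2 scale. Without chromosomes 4, 8 and Y, 11 of 18 formative genes fell. Of the other genes of DNA methylation, Mbd4, a glycosylase that repairs deaminated methylcytosine, rose (0.74 ± 0.15).

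Transcripts of the 2-cell-like state were low in every knockout library. Of 14 tested genes of this state 13 fell and none rose (median -3.02). Zscan4d, of a cluster on chromosome 7 expressed in the embryo at the 2-cell stage, measured 11.7, 4.13 and 3.54 CPM in wild type and 1.67, 0.0865 and 0.464 CPM in the knockout (log2 fold change -3.30, SE 0.34, adjusted p = 0.000115). Its copies Zscan4b, Zscan4c, Zscan4e and Zscan4f fell by 2.60, 3.10, 2.85 and 3.20 on the log2 scale. These copies are nearly identical, so the division of reads between them is uncertain and they do not count as independent genes. Away from the cluster, Gm5662 measured 10.4, 5.33 and 4.52 CPM in wild type and 2.01, 0.259 and 0.65 CPM in the knockout (-2.95 ± 0.30), and Calcoco2, a receptor for selective autophagy, measured 45.3, 76.8 and 64.1 CPM in wild type and 28.3, 24.9 and 23.6 CPM in the knockout (-1.29 ± 0.21). Except for Calcoco2, these transcripts were at a few CPM in wild type, and a stricter filter that asks for 1 CPM in 6 libraries left 4 calls.

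Nodal and the inhibitors it induces fell. Of 24 tested genes of the Nodal, activin and TGF-beta pathway 8 fell and 2 rose, against 12.8% lower and 10.5% higher among all tested genes. A single rise was left without the block and without any 1 of the libraries but wild type replicate 1. The ligand gene Nodal measured 62.3, 58.7 and 50.2 CPM in wild type and 45.5, 28.7 and 35.5 CPM in the knockout (log2 fold change -0.65, SE 0.13, adjusted p = 0.00564). Lefty1, a secreted inhibitor that Nodal itself induces, measured 121, 21.9 and 17.2 CPM in wild type and 9.77, 1.56 and 2.83 CPM in the knockout (-3.34 ± 0.27). Its relative Lefty2 measured 32.3, 18.2 and 18.5 CPM in wild type and 4.71, 1.95 and 1.44 CPM in the knockout (-3.18 ± 0.17). For all 3 genes the highest knockout value was below the lowest wild type value. Acvr1b, a type I receptor through which Nodal and activin signal, rose from 46.6 ± 10.7 to 84.8 ± 15.6 CPM (0.85 ± 0.17). Of 22 tested BMP and Id genes 4 fell and 3 rose, not far from the 12.8% lower and 10.5% higher among all tested genes. Their median log2 fold change was 0.001, and 2 of the falls lay outside chromosomes 4, 8 and Y. Falls numbered 2 without wild type replicate 2, wild type replicate 3 or knockout replicate 3, and rises numbered 0 or 1 without any 1 of the libraries but wild type replicate 1. Id3 (chromosome 4) and Id1, inhibitors of basic helix-loop-helix factors, fell by 2.50 and 1.07 on the log2 scale.

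Genes of FGF signalling fell more often than they rose, with 9 of 22 tested genes lower and 2 higher, and 7 of 20 lower outside chromosomes 4, 8 and Y. Rises numbered 4 without wild type replicate 1 and 1 without knockout replicate 3. Spry2, a feedback inhibitor of receptor signalling, measured 82.5, 123 and 117 CPM in wild type and 56.1, 38.9 and 43.1 CPM in the knockout (-1.22 ± 0.18). The ERK phosphatase genes Dusp6 and Dusp5 fell from 91.2 ± 11 to 54.5 ± 9.9 CPM and from 23.8 ± 4.51 to 12.3 ± 1.31 CPM. Receptors went in both directions: Fgfr1 (chromosome 8) and Fgfr2 fell by 0.63 and 0.77 on the log2 scale, and Fgfr3 rose from 10.4 ± 1.57 to 24.3 ± 7.73 CPM (1.19 ± 0.17). Among 22 genes of the retinoic acid response 9 fell and 3 rose, with 5 falls left without knockout replicate 2. Crabp2, which carries retinoic acid to its receptors, fell (-1.18 ± 0.26), while Tgm2, a transglutaminase induced by retinoic acid, rose from 18.6 ± 4.62 to 45.1 ± 6.04 CPM (1.31 ± 0.17). In the Hedgehog pathway Gli2, a transcriptional effector, rose (0.90 ± 0.14). Of 36 tested genes of the Wnt pathway 6 fell and 4 rose, near the 12.8% lower and 10.5% higher among all tested genes. Their median log2 fold change was 0.034, and without the block 3 fell and 2 rose. Rises numbered 0 without wild type replicate 2, knockout replicate 2 or knockout replicate 3 and 2 without wild type replicate 3. The ligand Wnt4 (chromosome 4) and the receptor Fzd2 fell by 2.70 and 1.62 on the log2 scale.

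Many targets of the YAP and TEAD factors fell. YAP and its relative TAZ, the product of Wwtr1, enter the nucleus of spread cells and activate genes through TEAD proteins, which bind the letters GGAATG. Promoter sequences of 4 of the targets are shown because all 4 fell in the knockout and hold this motif, with the motif or its reverse complement in capitals. Each is the 250 bases before the gene's start, on the gene's own strand, from the RefSeq annotation of GRCm38.p6, at chr3:145649986-145650235 for Cyr61, chr9:102717554-102717803 for Amotl2, chr19:36119845-36120094 for Ankrd1 and chr14:54577662-54577911 for Jub.
Cyr61: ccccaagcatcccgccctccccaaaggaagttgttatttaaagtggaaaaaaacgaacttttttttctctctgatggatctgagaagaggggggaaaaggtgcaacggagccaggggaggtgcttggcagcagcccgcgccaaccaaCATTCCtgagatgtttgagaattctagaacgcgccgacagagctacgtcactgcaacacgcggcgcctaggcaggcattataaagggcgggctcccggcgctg
Amotl2: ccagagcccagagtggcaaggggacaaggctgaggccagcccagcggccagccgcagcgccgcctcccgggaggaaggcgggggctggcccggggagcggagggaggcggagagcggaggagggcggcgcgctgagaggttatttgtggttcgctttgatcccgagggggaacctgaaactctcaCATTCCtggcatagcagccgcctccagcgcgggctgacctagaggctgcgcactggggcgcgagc
Ankrd1: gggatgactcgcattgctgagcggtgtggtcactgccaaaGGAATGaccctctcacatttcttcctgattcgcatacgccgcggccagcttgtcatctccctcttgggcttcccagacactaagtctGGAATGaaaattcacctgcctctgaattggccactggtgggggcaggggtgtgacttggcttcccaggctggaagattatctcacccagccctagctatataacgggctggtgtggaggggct
Jub: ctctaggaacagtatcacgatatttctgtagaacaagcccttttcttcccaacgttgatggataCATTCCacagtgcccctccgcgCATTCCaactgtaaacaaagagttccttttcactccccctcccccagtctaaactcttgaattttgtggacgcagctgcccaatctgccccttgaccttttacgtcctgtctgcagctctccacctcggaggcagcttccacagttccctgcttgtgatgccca
The motif begins 103 bases before the start in Cyr61, 65 in Amotl2, 210 and 123 in Ankrd1, and 186 and 164 in Jub. On either strand it was present in 10.8% of the promoters of tested genes and in 12 of 20 promoters of the tested YAP and TEAD list. Some genes have several promoters. Counted by gene with the motif in any promoter, it was present in 10 of the 16 tested genes of the list that matched the promoter table. The same count was 7 of the 10 called ones, which include Wwtr1, a gene that rose. A match of letters is a description and not a measured binding site.

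Of 22 genes in that list 11 fell and 2 rose (median -0.54). Cyr61, the current Ccn1, encodes a secreted matricellular protein and measured 109, 113 and 117 CPM in wild type and 25.3, 21.9 and 24.6 CPM in the knockout (log2 fold change -2.24, SE 0.11, adjusted p = 1.79e-06). Ctgf, the current Ccn2 and a second member of its family, measured 49.4, 54.5 and 45.5 CPM in wild type and 17.2, 13.6 and 13.1 CPM in the knockout (log2 fold change -1.77, SE 0.13, adjusted p = 1.58e-05). Both had narrow spreads within groups and no overlap, and Cyr61 had the smallest p among called genes of at least 4 in mean log2 CPM whose groups did not overlap. Amotl2, which holds YAP in the cytoplasm, fell from 109 ± 12.2 to 34.6 ± 6.89 CPM (-1.66 ± 0.14), and its relative Amot fell by 1.07. Jub, the current Ajuba, a LIM protein that binds the LATS kinases, fell from 179 ± 8.01 to 90.7 ± 7.8 CPM. Lats2, the kinase that inactivates YAP, fell from 8.11 ± 2.26 to 2.04 ± 0.63 CPM (-1.99 ± 0.27). Thbs1, the gene of thrombospondin, measured 10.8, 52.6 and 78.8 CPM in wild type and 0.736, 1.47 and 0.882 CPM in the knockout. Its fall was the largest in the list among genes with knockout counts throughout (-5.35 ± 0.62), and it moved to -6.08 without wild type replicate 1 and -4.63 without wild type replicate 3. Ankrd1, a nuclear cofactor of muscle and a standard YAP readout, measured 0.416, 3.32 and 2.69 CPM in wild type and 0, 0.0432 and 0.0464 CPM in the knockout, so it was at or near 0 in the knockout and no fold is given. The 2 genes that rose were factors of the pathway itself: Wwtr1, from 51.6 ± 5.21 to 90.4 ± 16.8 CPM, and Tead4, from 25.8 ± 11.8 to 50.1 ± 3.65 CPM. Tead2 and Tead3, factors of the same pathway, were among the 11 that fell.

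Genes of the contractile actin cytoskeleton fell more often than they rose. Many are activated by serum response factor, which binds the CArG box, searched here as CC, 6 letters of A or T, and GG. The promoters of 3 called members are shown because they hold a match, in capitals, in the same window and build, at chr8:123894776-123895025 for Acta1, chr2:156775214-156775463 for Myl9 and chr11:120348496-120348745 for Actg1.
Acta1: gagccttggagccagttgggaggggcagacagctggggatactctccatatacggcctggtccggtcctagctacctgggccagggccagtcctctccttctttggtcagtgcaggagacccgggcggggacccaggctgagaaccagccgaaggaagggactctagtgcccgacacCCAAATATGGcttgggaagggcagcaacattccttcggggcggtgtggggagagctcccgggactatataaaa
Myl9: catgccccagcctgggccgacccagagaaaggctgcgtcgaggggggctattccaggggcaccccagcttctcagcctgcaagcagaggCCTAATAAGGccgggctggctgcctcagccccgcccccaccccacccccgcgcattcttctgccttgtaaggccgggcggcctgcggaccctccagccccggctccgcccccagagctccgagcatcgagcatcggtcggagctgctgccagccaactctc
Actg1: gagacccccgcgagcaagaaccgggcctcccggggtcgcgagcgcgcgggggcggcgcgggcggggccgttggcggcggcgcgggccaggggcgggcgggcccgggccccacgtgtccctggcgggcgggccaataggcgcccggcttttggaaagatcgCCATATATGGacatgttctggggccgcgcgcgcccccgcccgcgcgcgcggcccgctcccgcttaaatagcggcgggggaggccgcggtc
The box begins 73 bases before the start in Acta1, 161 in Myl9 and 90 in Actg1. It was present in 1.17% of the promoters of tested genes and in 10 of 44 promoters of the tested actin list. Counted by gene with the box in any promoter, it was present in 10 of the 35 tested genes of the list that matched the table. The same count was 5 of the 18 called ones, so called genes held it about as often as the whole list. The Acta1 window also holds 1 copy of the TEAD letters, which does not overlap its box.

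Of 38 tested actin and contractile genes 19 fell and 1 rose (median -0.43), and 16 of 35 fell outside chromosomes 4, 8 and Y. Without knockout replicate 2 the falls numbered 11. Tpm1, a tropomyosin that stabilizes actin filaments, measured 211, 327 and 310.2 CPM in wild type and 75.3, 74.8 and 82.1 CPM in the knockout (log2 fold change -1.87, SE 0.19, adjusted p = 0.000102). Tagln, or transgelin, which binds actin in smooth muscle cells, measured 31.2, 159 and 103 CPM in wild type and 6.73, 20.2 and 20.7 CPM in the knockout (log2 fold change -2.54, SE 0.36, adjusted p = 0.000753). In both genes wild type replicate 1 was the lowest wild type library, and still above all knockout libraries. Acta2, smooth muscle actin, measured 3.84, 50.8 and 43.9 CPM in wild type and 0.245, 1.08 and 0.789 CPM in the knockout (-5.32 ± 0.62). Acta1, skeletal muscle actin (chromosome 8), measured 2.44, 42.8 and 34.4 CPM in wild type and 0.245, 0.476 and 0.697 CPM in the knockout (-5.61 ± 0.55), and its log2 fold change was -4.96 without wild type replicate 2. Myl9, a regulatory light chain of smooth muscle myosin, measured 19, 8.44 and 6.67 CPM in wild type and 2.26, 1.86 and 1.81 CPM in the knockout (-2.41 ± 0.24). Cytoplasmic Actg1 fell from 324 ± 19.7 to 217 ± 26.1 CPM (-0.59 ± 0.11). Calponins Cnn1 and Cnn2 fell by 1.61 and 0.90 on the log2 scale, and Gsn, which severs actin filaments, fell from 39.7 ± 20 to 13.3 ± 2.5 CPM. Integrins, which tie the cytoskeleton to the matrix, went both ways: Itga3 fell from 169 ± 58.7 to 68.8 ± 5.54 CPM and Itgb1 (chromosome 8) from 391 ± 36.2 to 209 ± 39.9 CPM, while Itgb3 rose from 7.75 ± 1.74 to 17 ± 2.03 CPM.

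Several epithelial keratins and desmosome genes fell, with wild type replicate 1 far from its group. Of 17 tested genes 8 fell and 1 rose, and 5 fell without wild type replicate 2, wild type replicate 3, knockout replicate 2 or knockout replicate 3. Krt8, a keratin of simple epithelia, measured 19.7, 211 and 170.3 CPM in wild type and 9.18, 11.9 and 16.9 CPM in the knockout (log2 fold change -3.15, SE 0.54, adjusted p = 0.00232), and its partner Krt18 measured 28.7, 231 and 184 CPM in wild type and 11.2, 19.4 and 24.2 CPM in the knockout (log2 fold change -2.81, SE 0.45, adjusted p = 0.00151). All knockout values lay below wild type replicate 1, which was itself closer to the knockout libraries than to wild type replicates 2 and 3. Without that library the log2 fold changes were -3.86 for Krt8 and -3.41 for Krt18, and without wild type replicate 2 that of Krt8 was -2.51. Dsp, the desmosomal plaque protein desmoplakin, fell from 25.9 ± 14.2 to 8.03 ± 0.297 CPM, and Dsg2, a desmosomal cadherin, from 55.6 ± 21.5 to 28 ± 1.75 CPM. Of 22 tight junction genes 8 fell and none rose, but 5 of these fell without knockout replicate 2 and 3 of 17 fell outside chromosomes 4, 8 and Y. Cdh3, P-cadherin (chromosome 8), fell from 109.8 ± 24.1 to 41.5 ± 4.12 CPM (-1.39 ± 0.13).

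Trophectoderm and fibroblast markers, some of them these same genes, fell more often than they rose. Summed over 12 tested trophectoderm markers, levels were 159, 621 and 566 CPM in wild type and 142, 177 and 205 CPM in the knockout. Wild type replicate 1 lay within the knockout range. Of the 12, 8 fell, including Krt8, Krt18 and Krt7, and 1 rose, Tead4, by 1.04 on the log2 scale. The falls numbered 3 to 5 without any 1 of wild type replicates 2 and 3 and the knockout libraries. Among listed trophectoderm markers whose counts were too low to be tested, Elf5 had 0, 5 and 5 counts in wild type and none in the knockout. Plac1, also too low to be tested, had 6, 51 and 48 counts against 0, 2 and 1. Of 12 tested fibroblast markers 7 fell, among them Acta2, Tagln and Vim (-0.62 ± 0.12), and Fn1 rose. Their sum was 1403, 1155 and 1708 CPM in wild type and 1909, 2523 and 2689 CPM in the knockout, most of it Fn1. Among listed fibroblast markers whose counts were too low to be tested, Col3a1 had 0, 13 and 17 counts in wild type and 0 in each knockout library. Dcn had 1, 3 and 0 against 0, 0 and 0, and Lum had 0 throughout. Of 15 tested primitive endoderm markers 3 rose and 2 fell, and of 9 blood and endothelium markers 2 rose and 2 fell. Of 7 mesendoderm markers 1 fell, and neuroectoderm markers are given below. The part of other cell types in the falls of the keratin, contractile, trophectoderm and fibroblast genes was not tested.

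Matrix genes changed in both directions. Of 47 tested matrix genes 17 fell and 6 rose, against 12.8% lower and 10.5% higher among all tested genes. Falls numbered 9 without wild type replicate 3 or knockout replicate 3 and 11 without knockout replicate 2. Rises numbered 3 without knockout replicate 3. Among rises were basement membrane genes already named, Lama1 and Nid1, with Fn1. Lama1 measured 85.8, 101 and 131 CPM in wild type and 244, 337 and 324 CPM in the knockout (log2 fold change 1.51, SE 0.14, adjusted p = 5.53e-05), and Nid1 measured 134, 145 and 235 CPM in wild type and 397, 595 and 592 CPM in the knockout (log2 fold change 1.63, SE 0.16, adjusted p = 8e-05). Both had all knockout libraries above all wild type libraries. Among falls were Serpinh1, a chaperone of collagen folding, from 227 ± 52.7 to 96.1 ± 20.9 CPM (-1.23 ± 0.13), Lama3, a laminin chain of epithelia, from 31.2 ± 4.97 to 14.8 ± 2.45 CPM, and Col5a2, a fibrillar collagen of low abundance, from 1.71 ± 0.258 to 0.311 ± 0.114 CPM.

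Most cholesterol synthesis genes rose. Of 26 tested genes 17 rose and none fell (median 0.57), against 10.5% higher among all tested genes. The enzymes of this pathway are induced by SREBP2, the product of Srebf2, when sterols are scarce, and Insig1 restrains that step. The sterol element, searched as TCACNCCAC on both strands of the same window, was present in 1.03% of the promoters of tested genes and in 0 of the 18 tested genes of the list that matched the table, which says only that these letters are not in this window. Fdft1, squalene synthase, measured 110.4, 96.6 and 82.5 CPM in wild type and 146, 162 and 156 CPM in the knockout (log2 fold change 0.69, SE 0.12, adjusted p = 0.00248). Stard4, a cytosolic sterol carrier, measured 31.9, 19.4 and 20 CPM in wild type and 52.6, 70.8 and 57.5 CPM in the knockout (log2 fold change 1.36, SE 0.19, adjusted p = 0.000637). For both genes the knockout libraries lay above all wild type libraries. Squalene epoxidase Sqle and the demethylase Cyp51 rose from 82.9 ± 10.5 and 91.2 ± 12.4 CPM to 124 ± 8.21 and 147 ± 16.4 CPM. The late enzymes Dhcr7 and Sc5d rose by 0.73 and 0.79 on the log2 scale. Srebf2 itself rose from 271 ± 42.5 to 444 ± 94.2 CPM (0.71 ± 0.13), and Insig1 from 80.8 ± 24.4 to 173 ± 16.2 CPM (1.13 ± 0.17).

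Fatty acid genes rose in part, 11 of 32 higher and 2 lower, with 7 rises left without knockout replicate 3. The desaturases Scd1 and Scd2, which make monounsaturated fatty acids, both rose. Scd1 measured 94.6, 59.2 and 85.6 CPM in wild type and 165, 214 and 217 CPM in the knockout (1.31 ± 0.18). Scd2 measured 514, 299.6 and 380.3 CPM in wild type and 686, 804 and 829.5 CPM in the knockout (0.97 ± 0.17). Groups did not overlap for either gene. The elongase Elovl7 and the phosphatidate phosphatase Lpin1 rose from 17.1 ± 1.42 and 35.1 ± 5.48 to 42.8 ± 11.5 and 79.6 ± 12.4 CPM. The 2 falls were of Plin2, a coat protein of lipid droplets (chromosome 4), from 108 ± 37.1 to 55.2 ± 10 CPM, and of Acsl5, an acyl-CoA synthetase, from 17.5 ± 1.97 to 8.5 ± 0.847 CPM.

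Some lysosomal and glycolytic genes rose, with counts that depended on single libraries. Of 44 lysosomal genes 13 rose and 1 fell, and 6 to 8 rose without wild type replicate 3, knockout replicate 2 or knockout replicate 3 and 8 without the block. The protease Ctsb measured 136, 176 and 147 CPM in wild type and 189.5, 326 and 297 CPM in the knockout (log2 fold change 0.80, SE 0.12, adjusted p = 0.00133). Of 37 genes of glycolysis and hypoxia 10 rose. This count was 5 or 6 without wild type replicate 3, knockout replicate 2 or knockout replicate 3, 16 without wild type replicate 1 and 3 without the block. Gpi1, the isomerase at the second step of glycolysis, measured 841, 1017 and 911 CPM in wild type and 1085, 2011 and 1938 CPM in the knockout (log2 fold change 0.82, SE 0.15, adjusted p = 0.00268), and Aldoc, an aldolase, rose from 48.3 ± 6.21 to 108 ± 36 CPM, while the muscle enolase Eno3 fell from 23.9 ± 4.87 to 10.9 ± 2.07 CPM. For Gpi1 knockout replicate 1 was closer to wild type than the other knockout libraries. Of 35 tested chaperone genes of the endoplasmic reticulum and the heat shock response 9 rose and 5 fell, and 2 of 31 fell outside chromosomes 4, 8 and Y. Among all tested genes 10.5% were higher and 12.8% lower. Falls numbered 3 without the block, wild type replicate 2 or wild type replicate 3, and 2 without knockout replicate 2 or knockout replicate 3. The rises included Pdia4, a disulfide isomerase (0.66 ± 0.12), Xbp1, a transcription factor of the response (0.66 ± 0.11), and Dnajc3, a cochaperone (0.71 ± 0.13), while Herpud1 (chromosome 8) fell (-0.85 ± 0.13). Of 32 tested genes of serine and one-carbon metabolism and amino acid stress 8 fell and 4 rose, and 5 of 29 fell outside chromosomes 4, 8 and Y. Falls in that group numbered 4 without wild type replicate 3. Chac1, which degrades glutathione under amino acid stress, fell from 14.2 ± 3.45 to 4.6 ± 0.503 CPM, and Slc38a2, an amino acid transporter, from 344 ± 39.7 to 197 ± 54.4 CPM.

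**Figure D4:**
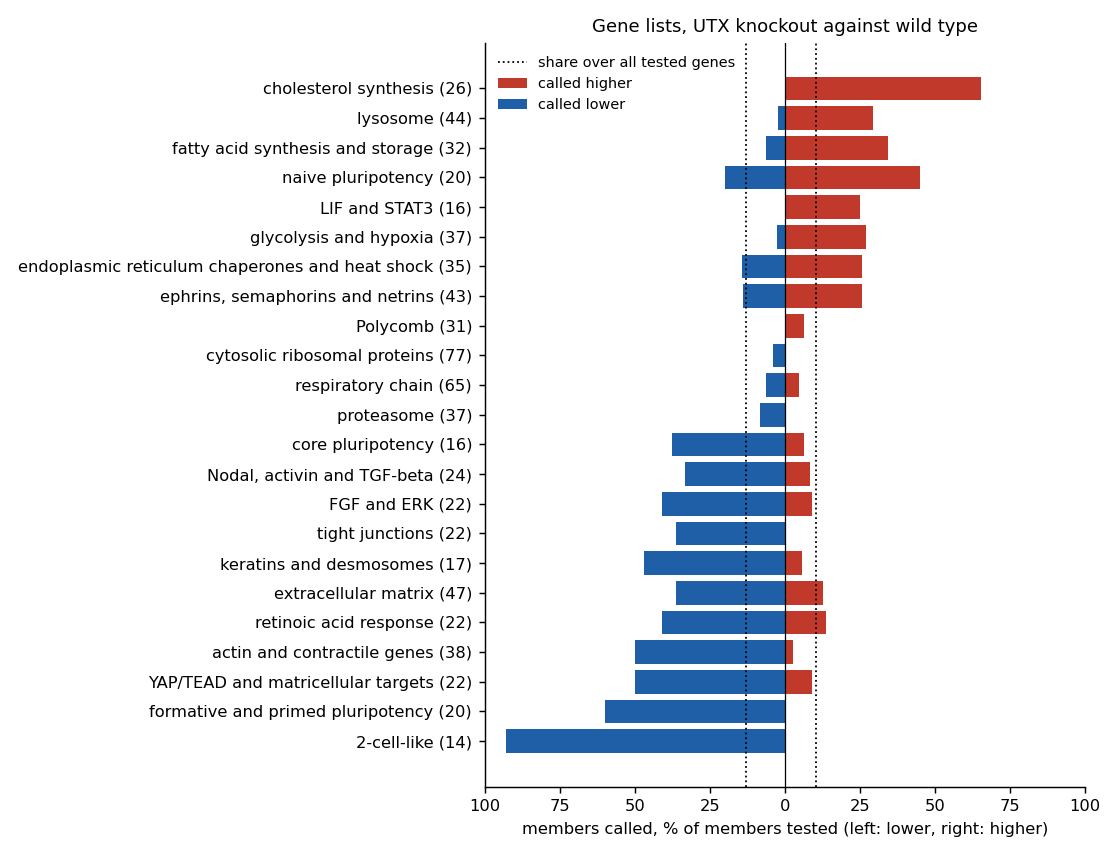
Percent of tested members called higher (to the right) and called lower (to the left) in the UTX knockout for 23 gene groups, with dotted lines at the 10.5% and 12.8% found among all tested genes. The number of tested members stands in parentheses. Cholesterol synthesis lies furthest to the right among the groups shown, and the 2-cell-like group furthest to the left.

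**Figure D5:**
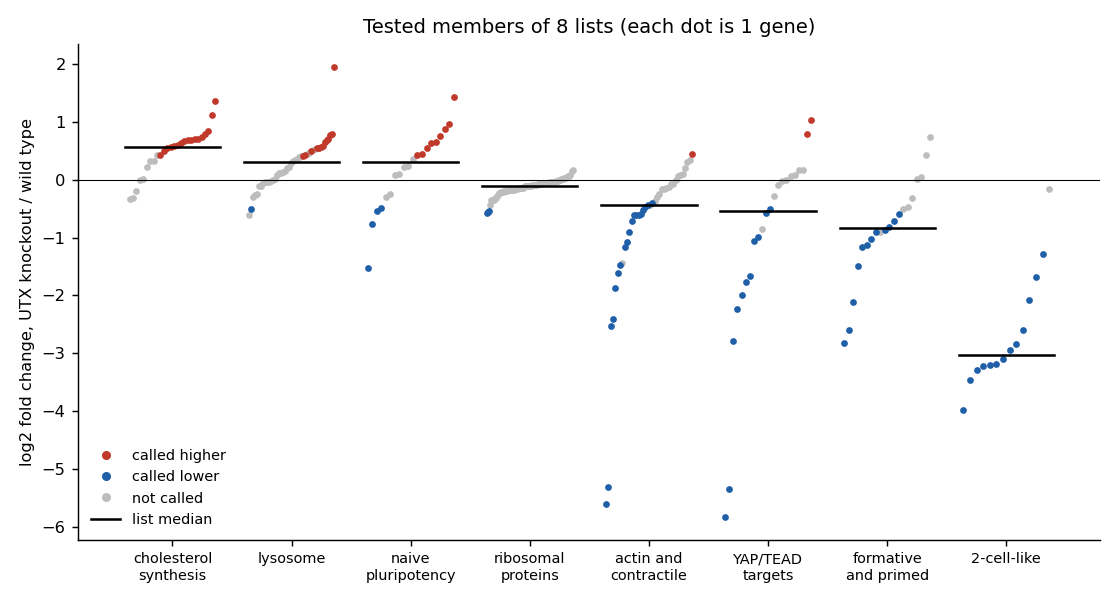
Log2 fold change (y axis) of each tested member of 8 gene groups (x axis), 1 point per gene, with called genes coloured and a bar at the median. Cholesterol synthesis members lie mostly above 0 and 2-cell-like, formative, YAP and TEAD, and actin members mostly below.

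Housekeeping groups stayed near or under the share of all genes. Of 77 cytosolic ribosomal protein genes 3 fell and none rose, and the 3, which include Rps6 (-0.57 ± 0.13), lie on chromosomes 4 and 8, with 1 fall without knockout replicate 2. Of 37 proteasome genes 3 fell and none rose, with 6 falls without wild type replicate 1 and 1 fall outside chromosomes 4, 8 and Y. Of 65 nuclear genes of the respiratory chain 3 rose and 4 fell, and all 4 falls lie on chromosomes 4 and 8. Rises in that group numbered 7 without wild type replicate 2, 1 without knockout replicate 2 and 0 without wild type replicate 3 or knockout replicate 3. Its falls numbered 1 without wild type replicate 2 or knockout replicate 1, 0 without knockout replicate 2 and 2 without knockout replicate 3. Among replication and mitosis genes 7 of 48 rose and 5 fell, and 7 of 42 rose and 2 fell outside chromosomes 4, 8 and Y. Without wild type replicate 3 the counts were 2 and 3, without knockout replicate 1 they were 4 and 3, without knockout replicate 2 they were 1 and 2, without knockout replicate 3 they were 1 and 5, and without wild type replicate 2 they were 8 and 3. The cell cycle inhibitor gene Cdkn1b rose from 40.7 ± 5.42 to 92.2 ± 30.9 CPM (1.13 ± 0.13), Cdkn1c fell (-1.12 ± 0.20) and the cyclin gene Ccnd1 fell from 96.9 ± 13.4 to 62 ± 10.9 CPM (-0.65 ± 0.13).

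Guidance molecules and growth factor receptors changed in both directions. Of 43 tested ephrins, semaphorins, netrins, slits and their receptors 11 rose and 6 fell (median log2 fold change -0.012). Among all tested genes 10.5% were higher and 12.8% lower, so the falls were near the share of all genes. There were 7 rises and 3 falls without the block and 3 falls without knockout replicate 2. Ntn1, the gene of netrin 1, measured 26.1, 45.9 and 65.3 CPM in wild type and 105, 113 and 131 CPM in the knockout (log2 fold change 1.43, SE 0.17, adjusted p = 0.000313), with all knockout libraries above all wild type libraries. Robo1, a slit receptor, and Sema5b, a semaphorin, rose from 22.5 ± 7.39 and 14.3 ± 2.64 to 47.7 ± 7.88 and 34.1 ± 7.33 CPM. Efnb2, an ephrin (chromosome 8), and Unc5b, a netrin receptor, fell from 30 ± 5.67 and 55.6 ± 4.75 to 13.2 ± 0.703 and 28.2 ± 1.45 CPM. Kit, the receptor of stem cell factor, rose from 81.7 ± 11.1 to 136 ± 16.4 CPM (0.73 ± 0.13), and Erbb2, a receptor of the EGF family, fell from 22.1 ± 2.62 to 13.4 ± 2.96 CPM (-0.73 ± 0.15).

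Immediate early genes fell in 10 of 19 cases, in 7 of 15 outside chromosomes 4, 8 and Y, and in 6 without wild type replicate 3 or knockout replicate 2. Jun (chromosome 4), a subunit of AP-1, fell from 16.2 ± 3.84 to 5.75 ± 2.91 CPM (-1.52 ± 0.23), Ier2 (chromosome 8) fell (-0.97 ± 0.22) and Atf3, a stress-induced factor, fell from 4.88 ± 1.26 to 1.63 ± 0.201 CPM. Among 39 imprinted genes 11 fell and 4 rose, against 12.8% lower and 10.5% higher among all tested genes. There were 7 falls without knockout replicate 3 and 2 rises without any 1 of the 3 wild type libraries, knockout replicate 2 or knockout replicate 3. H19, the noncoding RNA transcribed from the maternal allele, measured 11.9, 39.2 and 37.1 CPM in wild type and 1.37, 1.43 and 1.9 CPM in the knockout (log2 fold change -4.12, SE 0.28, adjusted p = 1.24e-05), and Igf2, the growth factor expressed from the paternal allele of the same locus, measured 19.9, 164 and 224 CPM in wild type and 6.23, 17.1 and 20.6 CPM in the knockout (-3.01 ± 0.50). H19 did not overlap between groups, while Igf2 did. Phlda2, a placental growth restrictor of the neighbouring cluster, fell from 38.8 ± 12.1 to 17.2 ± 4.4 CPM. Grb10, an inhibitor of insulin receptor signalling, rose from 222 ± 28.3 to 348 ± 30.6 CPM (0.65 ± 0.13), and its neighbour Ddc, a decarboxylase, rose by 0.74 on the log2 scale.

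Other families held single large changes. Of 19 tested genes in a list of carbonic anhydrases and pH genes 4 fell and 3 rose. Of 23 tested interferon response genes 5 fell and 4 rose, and of 17 tested annexin and S100 genes 7 fell and 2 rose. The annexin and S100 falls numbered 3 without knockout replicate 2. Among all tested genes 12.8% were lower and 10.5% higher. Car4 and Car2, carbonic anhydrases that interconvert carbon dioxide and bicarbonate, fell from 37.8 ± 6.26 and 26.2 ± 12.9 to 2.12 ± 0.746 and 2.64 ± 0.184 CPM (-4.21 ± 0.30 and -3.27 ± 0.39). Of genes of the interferon response, Gbp2, a guanylate-binding GTPase, fell from 9.09 ± 2.01 to 0.304 ± 0.206 CPM (-4.88 ± 0.32), Irf1, a transcription factor, fell (-0.87 ± 0.15) and Stat2, a subunit of the interferon-activated factor, rose (0.56 ± 0.12). Anxa3, an annexin that binds phospholipid in the presence of calcium, fell from 21.5 ± 16.8 to 1.92 ± 0.563 CPM (-3.25 ± 0.48, and -3.85 without wild type replicate 1).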

How the data were processed

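Total RNA of 9 mouse stem cell libraries was made into libraries with the TruSeq RNA kit, per the labels' protocols. The authors deposited 1 table of raw counts per gene. The submitters' processing notes list the aligner STAR 2.4, the counter HTSeq 0.6.1 and 2 builds, hg19 and mm9, without roles. The annotation, any filter and whether counting used strand are not known from these sources. Reads of overlapping or antisense genes may therefore be mixed. Gene names, gene order and promoters came from RefSeq tables of GRCm38.p6, transcript lengths came from GENCODE, 14519 of 14772 tested genes had a chromosome, and no coordinates were converted.

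Counts were fitted with edgeR 4.0.16 (quasi-likelihood test, TMM scaling, filterByExpr by group) over all 9 libraries, with the replicate number as a block and Benjamini-Hochberg adjustment over 14772 genes. Deviations of same-numbered wild type and knockout libraries correlated at 0.415, 0.168 and 0.381, each over 0.1, against -0.412 to 0.158 for unlike numbers. Wild type replicate 2 with knockout replicate 3 gave that 0.158, so for number 2 these values hardly separate like from unlike numbers. The rule of the comparison asked for the block, and these values did not decide it. CPM values use TMM library sizes. The mean squared difference between replicates relative to counting noise was 6.57 to 60.7, so no pair was counted as 1 library. On simulated data for this comparison (14772 genes), 169 of 200 genes changed 2-fold were recovered, with 20 false calls. The false calls were a larger share of all calls than the 0.05 aimed at. The changed genes were drawn from those with a mean count of at least 20, so recovery of less abundant genes was not measured.

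Named genes were the COMPASS genes, the largest changes in fold, in CPM and in p among called genes without overlap, and called list members; genes whose call held under every alternative were preferred. Alternatives were the fit without the block, the 6 libraries alone, DESeq2 1.42.0, other scaling and filters, lane 2 alone, removal of a length trend, omission of chromosomes 4, 8 and Y, and leaving out each library. The comparison, lists and named genes were chosen with earlier results of these data known, so lists are described by counts and medians and no set test was run. Results for a few genes are not reported here.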

Additional observations from a re-analysis of the deposited data

How the results depend on the processing

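With the replicate number left out of the fit as a block, 2285 genes passed instead of 3446, with 968 higher instead of 1551. With the 6 libraries fitted alone and the block kept, 2257 passed (945 higher), and with lane 2 alone 2147 passed (909 higher and 1238 lower). Leaving out 1 library at a time gave 1631 to 4047 calls, 663 to 1834 higher and 968 to 2213 lower. DESeq2 called 3346 genes and upper quartile scaling 3427, and every call shared with another setting kept its sign. Of 167 named genes that passed the test, 165 passed in every one of the 15 alternatives that tested them. Such genes were preferred when genes were named, so this share does not measure how stable the calls were as a whole. The signs of 3 named genes that did not pass changed. Ep300 was at 0.018 with the 6 libraries alone and at -0.302 to 0.263 with 1 library left out. Sox2 was at -0.017 without the genes of chromosomes 4, 8 and Y and at -0.067 to 0.098 with 1 library left out. The log2 fold change of mt-Co1 was -0.047 in lane 2 alone and -0.061 to 0.156 with 1 library left out. Lane 1 holds 1 library per group and gives no value of its own. With 3 libraries a group, an exact permutation test of 1 gene that ignores the replicate numbers could not go below 0.1, and a test within pairs has a higher floor.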

Other observations

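Some of the clearest differences were in genes outside the groups above. Txnip, which binds thioredoxin and limits glucose uptake, measured 569.5, 330.2 and 323 CPM in wild type and 972, 1134 and 1029 CPM in the knockout (log2 fold change 1.37, SE 0.21, adjusted p = 0.00138), and Akap12, a scaffold for protein kinase A, rose from 1142 ± 256 to 1974 ± 168 CPM (0.81 ± 0.15). Txnip and Akap12 had all knockout libraries above all wild type libraries. Among genes with the smallest p, Cisd3, an iron-sulfur protein of mitochondria, rose from 23 ± 5.98 to 74.7 ± 14.2 CPM (1.71 ± 0.12), Elf3, an epithelial ETS factor, from 49.6 ± 13.1 to 126 ± 34.5 CPM (1.35 ± 0.11), and Atp1b1, a subunit of the sodium pump, from 92.6 ± 19.4 to 221 ± 47.3 CPM (1.25 ± 0.10). Among abundant genes that fell, Nasp, a histone chaperone (chromosome 4), measured 1519, 1336 and 1284 CPM in wild type and 955, 859 and 818 CPM in the knockout (-0.65 ± 0.10), and Odc1, the first enzyme of polyamine synthesis, fell from 1006 ± 47.5 to 655 ± 2.01 CPM (-0.62 ± 0.10). Tuba1a, an alpha-tubulin of neurons, fell from 249 ± 45.3 to 99.4 ± 18.8 CPM (-1.33 ± 0.11).

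Neural and germline genes gave further single changes. Of 7 tested neuroectoderm markers 3 fell and 1 rose, and 2 falls lay outside chromosomes 4 and 8: Pax6, a homeobox factor, from 13.3 ± 4.11 to 4.99 ± 0.644 CPM (-1.38 ± 0.20), and Nes, the filament protein nestin, from 60.5 ± 17.7 to 22.9 ± 2.75 CPM (-1.35 ± 0.18). Of 28 tested germline genes 6 fell and 3 rose, against 12.8% lower and 10.5% higher among all tested genes, so the rises were near that share. There were 3 falls without wild type replicate 3, also near the share of all genes, and 7 rises without wild type replicate 1. Tdrkh, a Tudor protein of the piRNA pathway, and Sycp1, a protein of the synaptonemal complex, fell from 10.4 ± 1.48 and 7.89 ± 0.421 to 4.11 ± 0.626 and 3.74 ± 1.21 CPM, and Sohlh2, a factor of early germ cells, rose from 18.9 ± 3.18 to 28.8 ± 0.678 CPM. A pair of genes chosen after their values were seen differed nearly as present against absent. Oog4, of a chromosome 4 family expressed in oocytes, measured 10.9, 11.3 and 10.6 CPM in wild type and 0, 0.0432 and 0 CPM in the knockout. Tex13, named for its expression in testis, measured 0.416, 0.341 and 0.403 CPM in wild type and 10.5, 8.82 and 8.45 CPM in the knockout. Every wild type library had Oog4 reads and a single read was counted in the knockout, whereas Tex13 was low in wild type and present in all knockout libraries (4.57 ± 0.26).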
